A study of Mus musculus with 3 samples.

Results

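Monocytes and the macrophages that derive from them were picked out of single-cell libraries of dissociated mouse liver by the transcripts of their barcodes. A barcode, the tag of 1 droplet, was taken when at most 40% of its UMIs (unique molecular identifiers, each standing for 1 captured RNA molecule) came from mitochondrial genes and when it held at least 3 UMIs summed over Lyz2, Ccr2, Cx3cr1, F13a1, Chil3, Vcan, Ms4a7, Csf1r and Ifitm6. It also had to hold no UMI of Clec4f, Cd5l or Timd4, which mark Kupffer cells, of Siglech, Xcr1, Clec9a or Cd209a, which mark dendritic cells, or of Cd79a, which marks B cells, and fewer than 4 UMIs of the neutrophil genes S100a8 and S100a9 together. This gave 419 of 30000 barcodes. The levels of these selecting genes are therefore a description and support nothing.

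The 3 libraries came from livers of male C57BL/6 mice aged 9 weeks, 1 library per genotype. All mice lacked Ifih1 and carried Alb-Cre, a Cre recombinase under the albumin promoter, which acts in hepatocytes. They differed at Adar1, which was wt/wt, wt/flox or flox/flox. From the Cre driver, deletion is inferred in hepatocytes, and Adar1 is taken to be intact in the myeloid cells described here. The labels state neither, and recombination was not checked here. The number of mice behind a library is not in the labels, and with 1 library per genotype no difference has a replicate check and no test was made. Intervals in brackets are 95% intervals of counting error only. Where 3 values stand together, they are in the order wt/wt, wt/flox, flox/flox.

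ADAR1 edits adenosine to inosine in double-stranded RNA, which keeps the cell's own RNA from being sensed as foreign, and MDA5, the product of Ifih1, is one of the sensors. Classical monocytes, rich in Ly6C and CCR2, leave the blood for tissues, where they can lose monocyte transcripts and gain those of macrophages, such as complement C1q, cathepsins and MHC class II. The study asked what loss of Adar1 does on an Ifih1-null background, and its title names a progranulin and EGF receptor axis between hepatocytes and macrophages.

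The selected barcodes numbered 49 of 9878 kept barcodes in wt/wt, or 0.496% (0.367 to 0.655, exact Clopper-Pearson). They numbered 188 of 9920 in wt/flox, or 1.90% (1.64 to 2.18), and 182 of 9774 in flox/flox, or 1.86% (1.60 to 2.15). The wt/wt share was thus the low one, and the shares of wt/flox and flox/flox overlapped within their intervals. Per Kupffer barcode (at least 3 UMIs over Clec4f, Cd5l and Timd4) there were 0.247, 0.758 and 0.703 selected barcodes. Collagenase digestion, a slow spin, red cell lysis and a Percoll gradient preceded loading, so that these are not shares of the liver. Nor are they shares of the cells in the suspension. Each library holds 10000 barcodes, and 81.2%, 74.5% and 76.0% of the kept ones were background barcodes (defined below). These are mostly hepatocytes or droplets of hepatocyte RNA. The wt/wt library, with 49 barcodes and 64117 UMIs against 230213 in wt/flox and 248389 in flox/flox, limits every comparison with it.

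**Figure D1:**
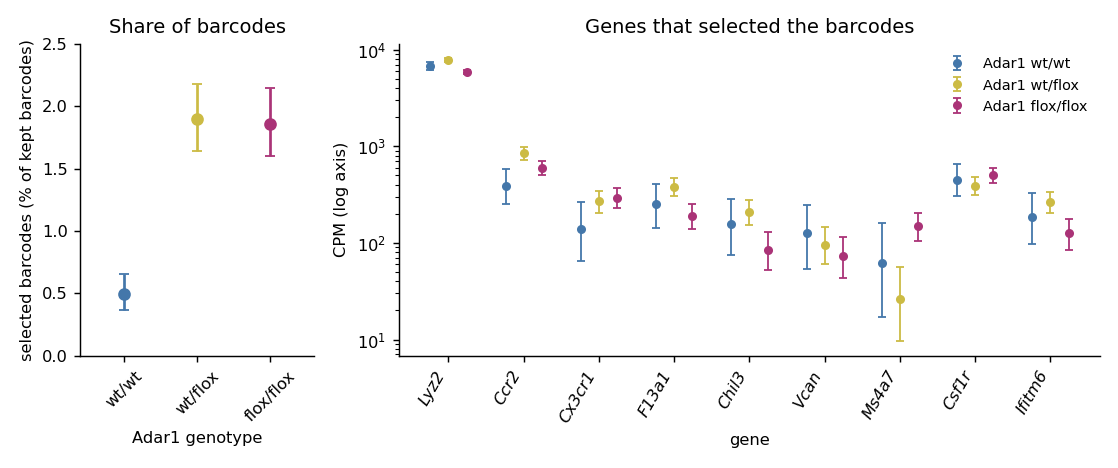
Left, share of kept barcodes (%) that were selected, in each library, with 95% Clopper-Pearson intervals. Right, CPM (UMIs of a gene per 1000000 UMIs, log axis) of the 9 genes that selected them, with 95% Poisson intervals. The wt/wt share of 0.496% is below 1.90% and 1.86%, and the Ms4a7 point of flox/flox (149 CPM) rests on 37 UMIs, those of wt/wt and wt/flox on 4 and 6.

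Levels are given as CPM, the UMIs of a gene per 1000000 UMIs of all selected barcodes in a library. Lyz2 (lysozyme) carried most of the selection, with 6785, 7784 and 5842 CPM, and 44 of the 419 barcodes had no other selecting gene. Ccr2, the receptor that draws monocytes into tissue, was at 390, 843 and 592 CPM. Ms4a7, a gene of monocyte-derived macrophages, was at 62.4, 26.1 and 149 CPM, and Chil3, a gene of classical monocytes, at 156, 209 and 84.5 CPM. Ms4a7 rests on 4, 6 and 37 UMIs and Chil3 on 10, 48 and 21. Near the threshold the selection was less pure. Of 90 barcodes with a sum of 2, just outside it, 34.4% held Tyrobp, a signalling adaptor of all myeloid cells. Of 44 with a sum of 3, just inside, 56.8% held it, and of 221 with a sum of 10 or more, 81.9%. At the sum of 3 stood 7, 8 and 29 barcodes, so that flox/flox had most of them.

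Myeloid genes that the rule did not use were present in all 3 libraries. Tyrobp was at 1139, 1373 and 1051 CPM and Fcer1g, a signalling chain of Fc receptors, at 858, 1064 and 1123 CPM, against 0 and at most 5.29 CPM in background barcodes. Background barcodes are those without a UMI of any selecting gene or of 14 markers of other non-hepatocyte cells, and Tyrobp is among those markers. Kupffer genes outside the rule were low. Vsig4, a complement receptor of Kupffer cells, was at 0, 26.1 and 20.1 CPM against 1063, 1441 and 1351 CPM in Kupffer barcodes, and Kcna2 had no UMI in any library. Summed over the 19 listed Kupffer genes in the files, the level was 561, 712 and 1196 CPM against 9511 to 10576 CPM in Kupffer barcodes. The sum was highest in flox/flox, where Slc40a1 (ferroportin, the iron exporter) had 48 UMIs, against 1 and 15.

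Dendritic cell genes outside the rule summed to 858, 712 and 813 CPM, and Flt3, a defining receptor of dendritic cells, had 1, 1 and 2 UMIs. Markers of T and natural killer cells, Ccl5 among them, summed to 156, 165 and 548 CPM, and were thus highest in flox/flox. Their part in the results was not tested except where values without such barcodes are given. From 25 hepatocyte markers and their share in background barcodes, free hepatocyte RNA was estimated as 53.1%, 55.7% and 45.5% of the UMIs of the selected barcodes. The share was lowest in flox/flox, where 26 myeloid genes outside the rule, summed, stood higher than in wt/wt by a log2 ratio of 0.27 (0.16 to 0.37) and than in wt/flox by 0.18 (0.11 to 0.25). Platelet and erythroid genes summed to 156, 717 and 165 CPM, and in wt/flox they included 79 UMIs of the haemoglobin gene Hbb-bs in 4 barcodes.

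Adar itself had 0, 4 and 13 UMIs, or 0, 17.4 and 52.3 CPM. This checks no label, since Alb-Cre acts in hepatocytes and a 3' tag may lie outside the deleted part. Ifih1 had no UMI in the selected barcodes of any library, which allows up to 3 UMIs in each.

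Over 4397 genes with at least 20 UMIs, flox/flox was at least 2-fold higher than wt/wt for 257 genes (5.84%) and at least 2-fold lower for 331 (7.53%), and the median log2 ratio was -0.05. Over wt/flox, 319 genes (7.25%) were at least 2-fold higher and 240 (5.46%) lower, with a median of 0.02. For wt/flox over wt/wt, 227 genes (5.16%) were higher and 358 (8.14%) lower, with a median of -0.07. These comparisons are not independent: both flox/flox comparisons share that library, and both comparisons over wt/wt share wt/wt. A count under 3 was set to 3 in a ratio. In wt/wt 952 of the 4397 genes had such a count, so that 87 of the 257 higher genes rest on it, and 4 of the 331 and 22 of the 358 lower genes were in fact higher in raw CPM. Median-of-ratios scaling moved the median of all genes over wt/wt from -0.05 to 0.18, with 486 genes higher and 202 lower.

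MHC class II molecules show peptides from engulfed material to CD4 T cells. H2-Aa encodes an alpha chain, H2-Ab1 and H2-Eb1 encode beta chains, Cd74 the invariant chain that guards the groove, and H2-DMa and H2-DMb1 the exchange factor that loads the peptide. RNA of H2-Aa and H2-Eb1 differed between libraries. That of H2-DMb1, at lower levels, did not differ beyond counting error, which does not show that it was level. Class II promoters share an upstream module of X and Y boxes, and 3 are shown, those of H2-Aa, H2-Eb1 and H2-DMb1. They are RefSeq sequences of GRCm38.p6, 250 bases before to 50 after the start of transcription, 5′ to 3′ on the strand of the gene, in lower case with matches to 2 motifs in capitals: GATTGG (core of the Y box) and ACTGATG (part of the X box), searched on both strands.
H2-Aa, chr17:34287774-34288073, minus strand: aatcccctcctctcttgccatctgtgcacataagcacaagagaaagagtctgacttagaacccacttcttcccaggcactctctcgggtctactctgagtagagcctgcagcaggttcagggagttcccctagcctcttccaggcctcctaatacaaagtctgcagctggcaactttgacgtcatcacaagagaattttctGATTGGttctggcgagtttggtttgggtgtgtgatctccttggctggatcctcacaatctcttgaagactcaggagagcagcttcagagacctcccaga
H2-Eb1, chr17:34305617-34305916, plus strand: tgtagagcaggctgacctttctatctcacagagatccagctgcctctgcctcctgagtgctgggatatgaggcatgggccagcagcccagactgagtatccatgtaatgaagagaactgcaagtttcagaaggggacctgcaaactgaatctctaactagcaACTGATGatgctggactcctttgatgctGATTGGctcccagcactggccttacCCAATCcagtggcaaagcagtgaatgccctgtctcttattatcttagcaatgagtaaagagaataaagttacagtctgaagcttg
H2-DMb1, chr17:34152941-34153240, plus strand: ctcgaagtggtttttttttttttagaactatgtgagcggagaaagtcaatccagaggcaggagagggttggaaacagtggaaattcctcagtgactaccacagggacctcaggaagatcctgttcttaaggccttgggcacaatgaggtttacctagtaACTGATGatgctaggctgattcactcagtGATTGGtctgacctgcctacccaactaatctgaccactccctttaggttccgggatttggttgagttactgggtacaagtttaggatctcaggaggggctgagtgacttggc
GATTGG began 49, 60 and 62 bases before the start in H2-Aa, H2-Eb1 and H2-DMb1, and H2-Eb1 held it a second time on the other strand. It is in 16.1% of the 32851 promoters of this length and ACTGATG in 3.19%. The letters were chosen from 12 strings after these sequences had been seen, so that a match is a description only, and the absence of ACTGATG from H2-Aa says only that these letters are not in its window.

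Transcripts of H2-Aa, H2-Ab1, H2-Eb1 and Cd74 were highest in flox/flox and lowest in wt/flox, the latter within counting error of wt/wt for H2-Aa. H2-Aa was at 780, 682 and 1888 CPM, and flox/flox exceeded wt/wt by a log2 ratio of 1.28 (0.85 to 1.73) and wt/flox by 1.47 (1.21 to 1.74). Cd74 was at 2371, 1429 and 3986 CPM, with ratios of 0.75 (0.50 to 1.01) and 1.48 (1.30 to 1.66). The flox/flox level of both genes lay above the intervals of both other libraries. H2-Ab1 was at 998, 552 and 1671 CPM and H2-Eb1 at 1092, 452 and 1397 CPM. For H2-Eb1 the excess of flox/flox over wt/wt, at 0.36 (-0.02 to 0.75), was within counting error, whereas over wt/flox it was 1.63 (1.31 to 1.96), and wt/flox was below wt/wt by a log2 ratio of -1.27 (-1.72 to -0.81). Of the exchange factor, H2-DMa was at 296, 139 and 185 CPM, where flox/flox differed from wt/wt by -0.68 (-1.48 to 0.18), within counting error, and H2-DMb1 was at 140, 82.5 and 145 CPM. Ciita, the coactivator on which class II transcription depends, had only 3, 15 and 13 UMIs.

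Of the 10 measured genes in the class II list, 2 were at least 2-fold higher in flox/flox than in wt/wt and 5 higher than in wt/flox, and none was as much lower, with median log2 ratios of 0.55 and 1.20. The same over all genes was 5.84% and 7.25% higher and 7.53% and 5.46% lower, with medians of -0.05 and 0.02. The summed UMIs of the list gave 0.73 (0.58 to 0.88) and 1.36 (1.25 to 1.46). After subtraction of free hepatocyte RNA they were 0.51 and 1.06. Without the barcodes that held a dendritic cell gene they were 0.62 and 1.46.

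Kupffer barcodes of the same libraries went the other way. There H2-Aa was at 1475, 1306 and 602 CPM, and Cd74 at 2906, 2357 and 1147 CPM. In flox/flox the selected barcodes thus stood above Kupffer barcodes in both genes, and in wt/wt and wt/flox below. No test of this difference was possible with 1 library per genotype.

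**Figure D2:**
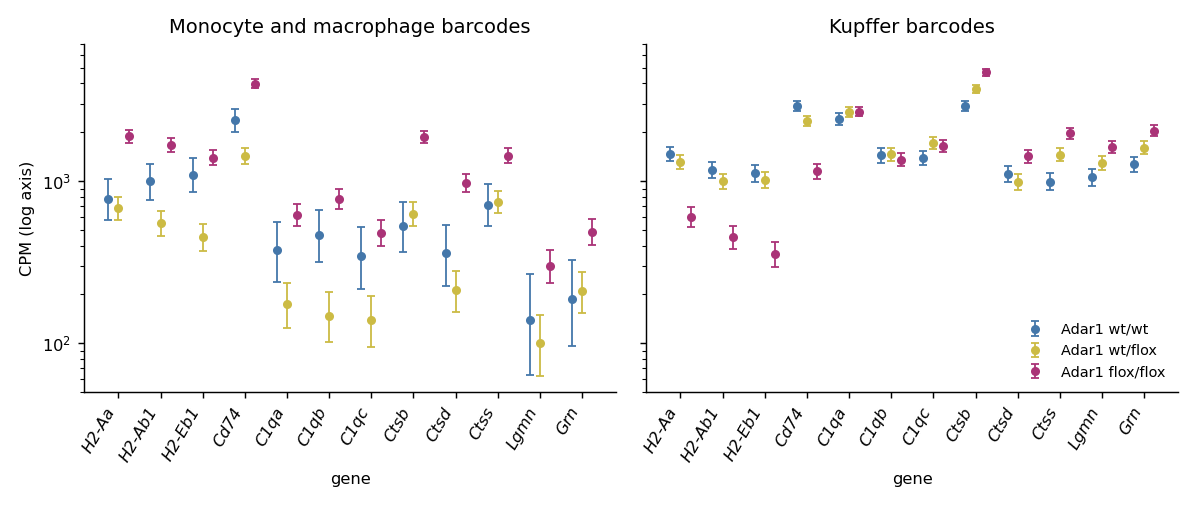
CPM (log axis) of 12 genes in the selected barcodes (left) and in Kupffer barcodes (right) of each library, with 95% Poisson intervals. Class II genes are highest in flox/flox on the left and lowest there on the right (H2-Aa 1888 against 602 CPM), whereas C1q genes are lowest in wt/flox on the left (C1qb 148 CPM) and about level for C1qb on the right.

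The libraries differed in the share of barcodes that held class II RNA. Each barcode was thinned to 600 UMIs, which left none out, and UMIs of H2-Aa, H2-Ab1, H2-Eb1 and Cd74 were counted. None was found in 46.9%, 67.0% and 30.2% of barcodes. At least 5 were found in 26.5% (14.9 to 41.1), 17.0% (11.9 to 23.2) and 43.4% (36.1 to 50.9). The highest count in 1 barcode was 21, 22 and 23, about level. In background barcodes 0.768% to 0.852% held any class II UMI after the same thinning, at a median of 826 to 897 UMIs per barcode against 1135.5 to 1279.5 in the selected barcodes. Without thinning, 61.2%, 41.5% and 76.4% of selected barcodes held at least 1.

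**Figure D3:**
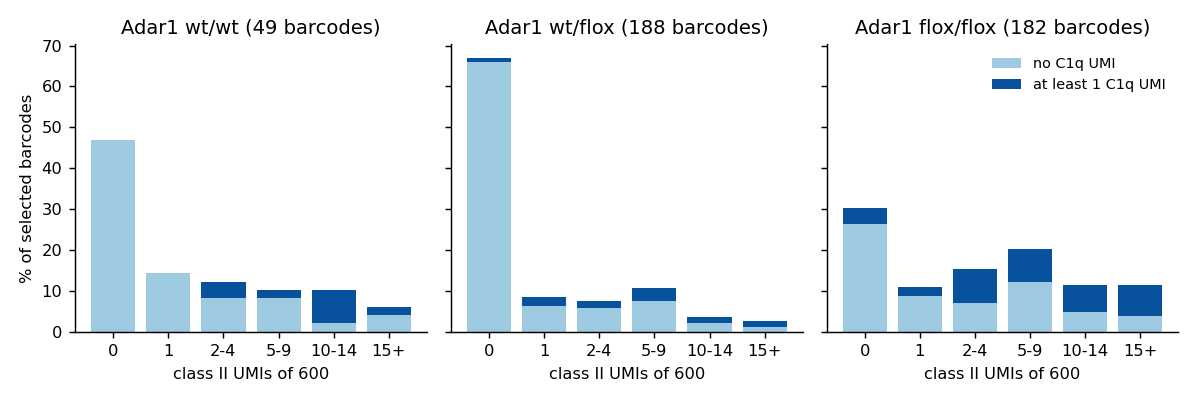
Share of selected barcodes (%) by their number of class II UMIs (H2-Aa, H2-Ab1, H2-Eb1 and Cd74) after thinning to 600 UMIs, 1 panel per library, with barcodes that held a C1q UMI in dark blue. Barcodes at 0 are 46.9%, 67.0% and 30.2% of the 3 libraries.

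Complement C1q, made by macrophages from C1qa, C1qb and C1qc, gave a similar order. C1qb was at 468, 148 and 777 CPM, C1qa at 374, 174 and 620, and C1qc at 343, 139 and 479. All 3 were lowest in wt/flox and highest in flox/flox. In wt/wt, 1 barcode held 12 of the 24 UMIs of C1qa. For C1qb the most in 1 barcode was 7 of 30, and for C1qc 6 of 22. The intervals take UMIs as independent and do not cover such clumping, so that the wt/wt level of C1qa is uncertain. Over wt/flox the C1qb ratio of flox/flox was 2.40 (1.86 to 2.97), and over wt/wt it was 0.73 (0.17 to 1.34). In Kupffer barcodes C1qb was at 1444, 1470 and 1357 CPM, about level. At least 1 C1q UMI was held by 10 of 49 barcodes in wt/wt, 20.4% (10.2 to 34.3), by 26 of 188 in wt/flox, 13.8% (9.24 to 19.6), and by 74 of 182 in flox/flox, 40.7% (33.5 to 48.2). Thinned to 600 UMIs, the same libraries gave 16.3%, 11.2% and 36.8%, and in background barcodes 0.748%, 0.744% and 0.916%. In Kupffer barcodes it was 93.4% in wt/wt and 94.8% in wt/flox. Kupffer cells in which Clec4f, Cd5l and Timd4 went undetected may therefore be among the barcodes with C1q, and their share was not tested.

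A split of the barcodes by C1q, made after these values were seen, separates their contents. Among barcodes with C1q the 4 class II genes summed to 12611, 10793 and 12862 CPM, and flox/flox differed from wt/wt by 0.03 (-0.21 to 0.28) and from wt/flox by 0.25 (0.08 to 0.42). Among barcodes without C1q they summed to 3493, 1801 and 6017 CPM, and the ratios were 0.78 (0.55 to 1.02) and 1.74 (1.56 to 1.92). The members of this sum did not all move with it: among barcodes with C1q, flox/flox differed from wt/wt by 0.61 (-0.02 to 1.31) for H2-Aa and by -0.62 (-1.13 to -0.07) for H2-Eb1. Without the barcodes that held C1q, the summed ratios of the whole class II list were 0.70 and 1.39. Plac8, a monocyte gene, was low with C1q (407, 297 and 264 CPM) and high without it (1563, 1760 and 1750 CPM) in every library. Genes of classical monocytes, summed, were at 4963, 7493 and 5503 CPM with C1q and at 10381, 12967 and 10572 CPM without. In flox/flox, Gpnmb and Trem2, genes of lipid-laden macrophages, stood at 320 and 207 CPM with C1q and at 91.4 and 49.2 CPM without. Only 10 wt/wt barcodes held C1q, so that its levels there rest on 12291 UMIs.

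Of 32 measured genes of macrophage maturation, 10 (31.2%) were at least 2-fold higher than in wt/wt and 17 (53.1%) higher than in wt/flox, beside 5.84% and 7.25% of all genes. None of the 32 was as much lower, beside 7.53% and 5.46% of all genes, and their medians were 0.73 and 1.20. Among the 25 with at least 3 UMIs in both wt/wt and flox/flox, 6 were higher and the median was 0.59. For wt/flox over wt/wt 1 was higher and 6 lower, with a median of -0.36, beside 5.16% of all genes higher and 8.14% lower. In Kupffer barcodes the list had medians of 0.36 and 0.30 for flox/flox over wt/wt and wt/flox.

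Ctsb, a lysosomal cysteine protease, was at 530, 630 and 1872 CPM, and flox/flox stood above the others by 1.82 (1.32 to 2.37) and 1.57 (1.30 to 1.85). Ctsd, a lysosomal aspartic protease, was at 359, 213 and 978 CPM, with ratios of 1.45 (0.83 to 2.13) and 2.20 (1.75 to 2.67). Both proteases were highest in flox/flox. In wt/wt, 11 of the 34 UMIs of Ctsb and 13 of the 23 of Ctsd stood in 1 barcode, which the intervals do not cover. In Kupffer barcodes Ctsb was at 2903, 3682 and 4701 CPM, an order with the same top at higher levels. Lgmn, the lysosomal protease legumain, was at 140, 99.9 and 298 CPM, and Maf at 265, 182 and 447 CPM. Adgre1 (F4/80), by contrast, was at 187, 104 and 161 CPM, and Ms4a6c at 561, 526 and 592 CPM, with no excess in flox/flox over wt/wt beyond counting error. With the barcodes that held C1q left out, the summed ratio of the list fell to 0.14 and 0.12, which in part follows from the loss of its C1q genes. Ctsb without those barcodes still had ratios of 1.58 (0.80 to 2.46) and 0.82 (0.43 to 1.22), and Ctsd had 1.81 (0.48 to 3.49) and 0.84, also above 0 beyond counting error.

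The promoter of Ctsd is shown because its product stood among the clearest differences and many lysosomal genes carry a palindrome, TCACGTGA, bound by TFEB and its relatives. It is printed as above, with the match in capitals.
Ctsd, chr7:142387778-142388077, minus strand: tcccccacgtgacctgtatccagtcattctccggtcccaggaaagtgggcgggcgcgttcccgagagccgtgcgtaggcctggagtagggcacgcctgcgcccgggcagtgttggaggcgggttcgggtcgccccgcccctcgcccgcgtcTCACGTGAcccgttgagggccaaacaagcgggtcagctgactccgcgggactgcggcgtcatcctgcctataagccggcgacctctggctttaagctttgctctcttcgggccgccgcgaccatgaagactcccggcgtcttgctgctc
The match began 99 bases before the start, and 0.974% of the 32851 promoters hold these letters. They were among the 12 strings tried. Of 35 measured lysosomal and phagocytic genes, 6 (17.1%) were at least 2-fold higher over wt/wt with none lower, and 4 (11.4%) higher with 1 lower over wt/flox. The medians were 0.46 and 0.58. Over all genes 5.84% and 7.25% were higher, and 7.53% and 5.46% lower. Psap, the precursor of the saposins, was at 1762, 1625 and 2722 CPM, highest in flox/flox.

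Lipid-associated macrophage genes, a list that shares Ctsb, Ctsd and Trem2 with the maturation list, had 6 of 19 measured genes at least 2-fold higher in each comparison, 0 and 2 lower, and medians of 0.52 and 0.61. Over all genes 5.84% and 7.25% were higher, and 7.53% and 5.46% lower. Gpnmb, a membrane glycoprotein, had 3, 4 and 47 UMIs, spread over 2, 3 and 18 barcodes. Its log2 ratio was 3.44 (1.99 to 5.38) over wt/flox and 2.02 (0.38 to 4.34) over wt/wt. Trem2, a lipid-sensing receptor, had 1, 10 and 29 UMIs. Both were thus highest in flox/flox. Lgals3, also of this list, was at 780, 547 and 636 CPM and was highest in wt/wt.

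**Figure D4:**
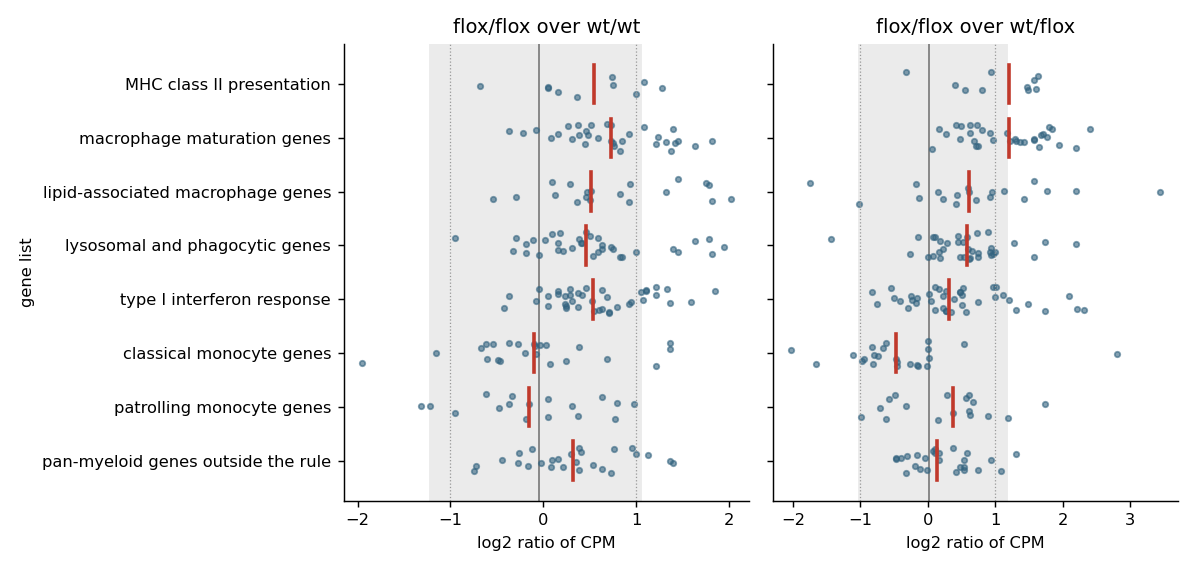
Log2 ratio of CPM for each measured gene (points) of 8 lists, for flox/flox over wt/wt (left) and over wt/flox (right), with the median of each list as a red bar. The grey line and band are the median and the middle 90% of all 4397 genes, and dotted lines mark 2-fold. Class II and macrophage maturation medians are 0.55 and 0.73 on the left and 1.20 and 1.20 on the right, and classical monocyte genes lie at -0.10 and -0.47.

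Genes of classical monocytes summed to 9342, 12167 and 8406 CPM. In background barcodes the same sum was 5807, 7670 and 6638 CPM, also highest in wt/flox, and the neutrophil markers summed to 1950, 2341 and 1562 CPM in the selected barcodes; their part in the order was not tested. Of 23 measured, 3 were at least 2-fold higher and 2 lower in flox/flox than in wt/wt, and 1 higher and 3 lower than in wt/flox, with medians of -0.10 and -0.47. Over all genes 5.84% were higher and 7.53% lower than in wt/wt, and 7.25% and 5.46% than in wt/flox. For wt/flox over wt/wt the median of the list was 0.44, with 1 higher and 1 lower, beside 5.16% and 8.14% of all genes. Ly6c2, the Ly6C antigen, was at 374, 508 and 266 CPM, and the ratio of flox/flox over wt/flox was -0.94 (-1.39 to -0.49). S100a4 was at 468, 799 and 479 CPM and Fn1 (fibronectin) at 733, 1138 and 640 CPM. Over wt/wt none of these 3 genes was lower in flox/flox beyond counting error, and the summed ratio of the list, -0.15 (-0.28 to -0.02), turned to 0.08 under median-of-ratios scaling and to 0.03 without the barcodes that held C1q. Thbs1 (thrombospondin), a member of the list, went against it with 1, 4 and 30 UMIs. Patrolling monocyte genes had medians of -0.15 and 0.38 over 17 measured genes, and Nr4a1, the factor on which patrolling monocytes depend, had 9, 20 and 14 UMIs.

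For type I interferon genes the direction over wt/flox depended on how free RNA was treated. Of 40 measured, 10 (25%) were at least 2-fold higher than in wt/wt and 9 (22.5%) than in wt/flox, beside 5.84% and 7.25% of all genes. None of the 40 was as much lower, beside 7.53% and 5.46% of all genes, and their medians were 0.54 and 0.31. Where wt/wt held at least 3 UMIs, 5 of 27 were higher, with a median of 0.37. Summed, the list was at 6301, 8001 and 9445 CPM, with ratios of 0.58 (0.43 to 0.74) and 0.24 (0.15 to 0.33). In background barcodes the same sum was 2366, 2886 and 5326 CPM, also highest in flox/flox. After subtraction of free hepatocyte RNA the ratios were 0.25 over wt/wt and -0.17 over wt/flox, so that the second changed direction. Subtraction also shrinks the total of each library, least in flox/flox, and so lowers flox/flox ratios even of genes that background barcodes hardly held. The class II sums fell with it from 0.73 to 0.51 over wt/wt and from 1.36 to 1.06 over wt/flox. The total acts alike on every gene, so that a fall of nearly this size is in the interferon ratios too. Without that part of the fall, the interferon ratio over wt/flox would have stayed above 0. In Kupffer barcodes the sum was 6108, 8117 and 12355 CPM.

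Ifi27l2a, an interferon-induced membrane protein that background barcodes hardly held (1.97, 4.58 and 9.94 CPM), was at 390, 730 and 821 CPM. It was higher in flox/flox than in wt/wt by 1.07 (0.47 to 1.74), and in wt/flox by 0.90 (0.29 to 1.57). Flox/flox and wt/flox thus stood together above wt/wt for this gene. Ifi204, an interferon-induced DNA sensor with at most 2.58 CPM in background barcodes, was at 156, 187 and 225 CPM, within counting error. Oasl2 had 1, 5 and 25 UMIs and was at 101 CPM in flox/flox against 21.2 CPM in background barcodes. Isg15, a ubiquitin-like protein, was at 31.2, 43.4 and 60.4 CPM and Irf7, the factor that amplifies interferon, at 46.8, 65.2 and 109 CPM, but background barcodes of flox/flox held 70.1 and 95.6 CPM. Ifitm3, the member with most UMIs, was level at 1747, 2042 and 1808 CPM. Of 10 measured interferon gamma genes none was at least 2-fold higher in either comparison and 1 was lower, with medians of 0.17 and 0.00. Over all genes 5.84% and 7.25% were higher, and 7.53% and 5.46% lower.

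**Figure D5:**
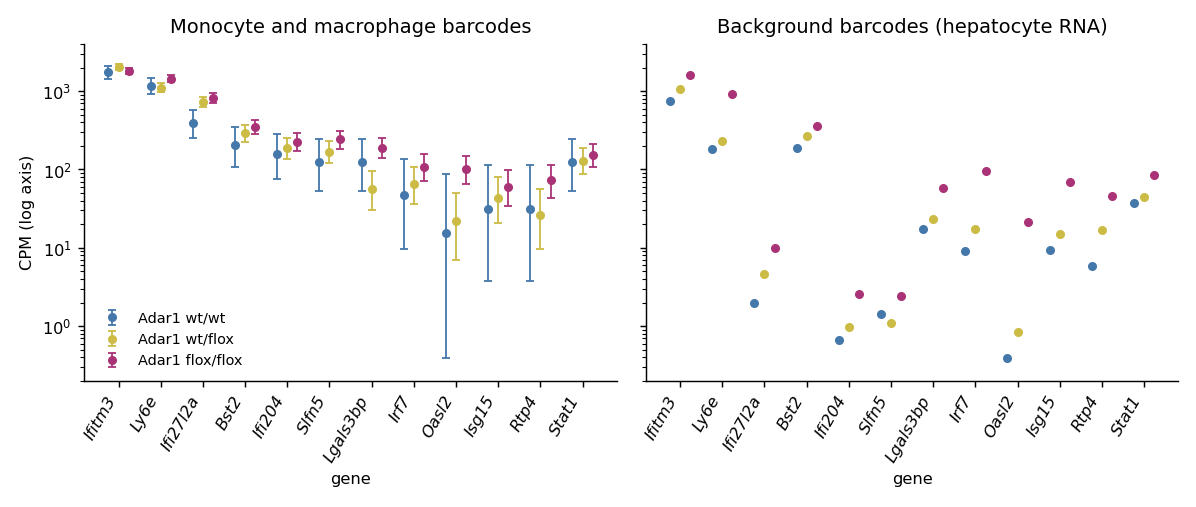
CPM (log axis) of 12 type I interferon genes in the selected barcodes, with 95% Poisson intervals (left), and in background barcodes, mostly hepatocyte RNA (right). Flox/flox is the highest library for all 12 genes on the right, and on the left the intervals overlap for most of them.

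The receptors and transducers of interferon were measured at low counts. Ifnar1 had 2, 15 and 13 UMIs and Ifnar2 3, 28 and 32. Stat2 was at 78.0, 21.7 and 92.6 CPM, with background barcodes between 26.4 and 55.9 CPM. Of 12 measured genes of that list, 2 (16.7%) were at least 2-fold higher in each comparison and none lower. Over all genes 5.84% and 7.25% were higher, and 7.53% and 5.46% lower.

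Of the axis in the study's title, progranulin RNA was found in these barcodes above background. Grn, its gene, was at 187, 209 and 487 CPM, with ratios for flox/flox of 1.38 (0.52 to 2.37) and 1.22 (0.73 to 1.74). Flox/flox stood above both other libraries, and wt/flox differed from wt/wt by 0.16 (-0.78 to 1.20). Background barcodes held 78.6, 68.8 and 119 CPM. In Kupffer barcodes Grn was at 1269, 1607 and 2050 CPM, also highest in flox/flox. Egfr, which encodes the receptor, was at 109, 104 and 242 CPM, below the 367, 225 and 573 CPM of background barcodes. Of the other genes of the list, Sort1, which takes up progranulin, had 1, 4 and 7 UMIs, and Tnfrsf1a and Tnfrsf1b, the tumour necrosis factor receptors, were at 78.0, 73.8 and 88.6 and at 172, 152 and 177 CPM. Neither receptor differed beyond counting error.

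Chemokines were few. Ccl5, which draws T cells and monocytes, had 3, 15 and 54 UMIs, in 2, 6 and 17 barcodes, and flox/flox exceeded wt/wt by a log2 ratio of 2.22 (0.59 to 4.54) and wt/flox by 1.74 (0.89 to 2.67). Ccl5 is also a transcript of T and natural killer cells, and it is itself among the markers whose sum was highest in flox/flox. It made up 3, 15 and 54 of the 10, 38 and 136 UMIs of that sum. Without barcodes that held at least 3 UMIs of another cell type's markers the ratio over wt/wt was -0.34 and over wt/flox 1.54. That removal takes out every barcode with at least 3 UMIs of Ccl5 by construction, so that these ratios do not show where Ccl5 came from. After that removal wt/wt and wt/flox held at most 3 UMIs of Ccl5 each, so that both ratios rest on so few counts. Over wt/flox the ratio lay between 1.47 and 1.95 under the 14 alternatives. Ccl2 had 0, 2 and 1 UMIs, and Il1b 1, 9 and 4. Inflammatory cytokine genes as a list had medians of 0.16 and 0.13 over 11 measured genes, with 0 and 1 at least 2-fold higher and none lower. The shares over all genes were 5.84% and 7.25% higher, and 7.53% and 5.46% lower.

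By rank over both comparisons the 12 genes that stood highest in flox/flox, leaving out selecting genes, were Gpnmb, Ly6a, Pik3r1, Ccl5, Ctsb, Slc40a1, Tgfbr1, Nrip1, Ctsd, Abhd12, Dab2 and Rgs1, each at least 2-fold higher than in both other libraries. Ly6a (Sca-1), an interferon-inducible surface protein, had 2, 5 and 41 UMIs, with background barcodes at 1.45, 3.06 and 117 CPM against 165 CPM in the flox/flox barcodes. Tgfbr1, a TGF-beta receptor, had 1, 13 and 39 UMIs, and Dab2, an endocytic adaptor, 2, 9 and 31. In wt/wt these genes had 1 to 3 UMIs apart from Ctsb and Ctsd, so that their ratios over wt/wt are loosely bounded. Kupffer barcodes of flox/flox held more of 8 of the 12 than the selected barcodes did, such as 1318 CPM of Slc40a1 against 193 and 457 CPM of Ly6a, and the exceptions were Gpnmb, Ccl5, Tgfbr1 and Abhd12. The 12 that stood lowest were Apoc2, Nme1, Tln1, Btg1, Ndufb7, Ly6c2, Sem1, Msrb1, Map1lc3b, Cdk2ap2, Cox4i1 and Vim, and none was 2-fold lower than both. Apoc2, a liver apolipoprotein, was at 593, 591 and 302 CPM with background barcodes at 541, 689 and 462 CPM. Vim (vimentin), which background barcodes hardly held, was at 671, 500 and 378 CPM.

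In wt/flox over wt/wt the 6 highest genes were Skp1a, Mtus1, Samsn1, Tax1bp1, Ap1s2 and Ifi203, and the 6 lowest C1qb, Tubb5, C1qc, H2-Eb1, C1qa and D8Ertd738e. Samsn1, a signalling adaptor of leukocytes, had 2, 39 and 14 UMIs. Ifi203, a DNA-binding protein induced by interferon, was at 62.4, 209 and 157 CPM, so that wt/flox exceeded wt/wt by a log2 ratio of 1.74 (0.29 to 3.67).

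Of 12 measured immediate early genes, which tissue dissociation can raise, 3 were at least 2-fold lower in each comparison and none higher, with medians of -0.42 and -0.57. The shares over all genes were 7.53% and 5.46% lower, and 5.84% and 7.25% higher. The summed ratios of the list were -0.16 (-0.41 to 0.11) and -0.47 (-0.64 to -0.31), and in background barcodes -0.27 and -0.55. Fos was at 125, 165 and 28.2 CPM. In Kupffer barcodes the medians were -0.57 and -0.60. The part of handling in the other differences was not tested.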

How the data were processed

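Libraries were made with a 10x Genomics 3' kit, per the labels, and counted with Cell Ranger 6.1.1, per the file headers. The submitters' processing notes name the build mm10 and Seurat, and the steps Seurat was used for are not given in the sources used here. The deposited matrix holds whole-number UMI counts, not normalized, of 32285 genes in 10000 barcodes per library, and the suffix of a barcode in the deposited list gave its library. The 3 libraries held 9744380 (wt/wt), 10067929 (wt/flox) and 10756790 (flox/flox) UMIs. Between library pairs 20 to 32 barcode sequences were shared, none between selected barcodes. No doublet caller was run. The members, gene lists and rules were chosen with earlier results of these data known.

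UMI counts of the selected barcodes were summed per library with pandas 2.3.3, numpy 2.4.6 and scipy 1.17.1 under Python 3.11.15 (figures with matplotlib 3.10.9). CPM is of that sum. Intervals are at 95%: exact conditional binomial for log2 ratios, exact Poisson for CPM and Clopper-Pearson for shares, tested on simulated counts. A gene with 20 or more UMIs in all was measured and was called at 2-fold, and counts under 3 were set to 3 in ratios. Named genes are the selecting genes, Adar, Ifih1, Grn, Egfr, members of the lists, and the 12 highest and 12 lowest in flox/flox by the smaller absolute log2 ratio over wt/wt and wt/flox where both had 1 sign (6 and 6 for wt/flox over wt/wt). These needed at least 20 UMIs in each library where the gene was the higher one and at least 0.5 of its UMIs left after subtraction of free hepatocyte RNA. Mitochondrial, ribosomal, predicted, haemoglobin, Xist, Y-linked and selecting genes were left out. Promoters are RefSeq entries for GRCm38.p6; 5 of 7 genes looked up had one. H2-Ab1 and Ctsb had none. Some genes of the lists are not reported here. Alternatives changed the selection, the scaling, the free RNA, the gene minimum and the smallest count.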

Additional observations from a re-analysis of the deposited data

Results flagged for a closer look

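Among the genes reported here, there were 5 cases in which a gene differed in opposite directions between flox/flox and another library in the selected barcodes and in Kupffer barcodes, at least 2-fold in both. All are genes of class II presentation and all comparisons share the flox/flox library, so that the cases are not independent. The same count over all genes is not given here. The difference between the barcode sets was not tested, since each genotype has 1 library. Over wt/wt H2-Aa had a log2 ratio of 1.28 in the selected barcodes and -1.29 in Kupffer barcodes. Over wt/flox H2-Aa had 1.47 and -1.12, H2-Ab1 1.60 and -1.14, H2-Eb1 1.63 and -1.52, and Cd74 1.48 and -1.04.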

How the results depend on the processing

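No paired analysis was possible because each genotype has 1 library, and for the same reason no replicate could be left out. Ratios are log2 of flox/flox over wt/wt and over wt/flox unless said otherwise. With barcodes of at least 1000 UMIs the shares were 1.34%, 4.41% and 3.79% in the 3 genotypes. With at least 5 UMIs over the 9 genes the flox/flox share was 1.34%, and over wt/flox class II was 1.60 and maturation 1.20. With at least 2 of the 9 genes it was 1.54%, class II was 0.89 and 1.64, and maturation over wt/flox 1.12. Without mixed barcodes the wt/flox and flox/flox shares were 1.58% and 1.54%, and class II over wt/flox was 1.54. Ccl5, itself among the markers by which this setting removes barcodes, was -0.34 over wt/wt. After subtraction of free hepatocyte RNA the median of all genes over wt/wt was -0.58, with 163 genes higher and 1489 lower (498 and 650 over wt/flox, and 1464 lower for wt/flox over wt/wt). Type I interferon was then 0.25 and -0.17, class II 0.51 and 1.06, and maturation 0.87 and 1.21. Class I over wt/wt was -0.01, and over wt/flox chemokines were -0.02 and pan-myeloid genes -0.12. In this setting the total shrank least in flox/flox, which by itself lowers flox/flox ratios. Without genes higher in background barcodes maturation over wt/flox was 0.89. That setting and median of ratios both gave 0.04 and 0.03 for lipid-associated and iron genes in wt/flox over wt/wt. Median of ratios gave 486 genes higher and 202 lower over wt/wt, interferon 0.81, class II 0.96, classical monocyte genes 0.08 and maturation 0.92 (1.06 over wt/flox). Genes with at least 50 UMIs gave 81 lower over wt/wt, 65 higher and 63 lower over wt/flox, and 53 lower for wt/flox over wt/wt, from fewer genes tested. With no minimum there were 6852 lower over wt/wt, 825 higher and 635 lower over wt/flox, and 7333 lower for wt/flox over wt/wt, where setting low counts to 3 makes genes lower by construction. At 1.5-fold the counts were 708 and 855, 799 and 729, and 608 and 906 in the 3 comparisons. With only counts under 1 raised, to 1, 774 genes were higher over wt/wt and 700 for wt/flox over wt/wt. The following were chosen after seeing the data. Genes with at least 3 UMIs in both libraries gave 170 higher over wt/wt. Without barcodes that held a dendritic gene 162 were higher over wt/wt and 148 for wt/flox over wt/wt, and maturation over wt/wt was 0.85. Without those with a Kupffer gene maturation was 0.53 and 0.87. Without those with a C1q gene it was 0.14 and 0.12, classical monocyte genes over wt/wt were 0.03, and in wt/flox over wt/wt 235 genes were lower, maturation was 0.02 and lipid-associated genes 0.06. Beyond these, the cause of a change was not tested. Under all 14 alternatives the class II sums stayed between 0.51 and 0.96 over wt/wt and between 1.06 and 1.64 over wt/flox.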
